A study of Mus musculus with 9 samples.

Results

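Macrophages clear modified lipoproteins, glycoproteins and dying cells through a set of surface receptors, and 8 of these were followed across FDCPmix cells in which Gata2 or Pu.1 had been knocked down. The receptors were the mannose receptor Mrc1, the class A scavenger receptors Msr1 and Marco, the haemoglobin receptor Cd163, the receptor tyrosine kinases Mertk and Axl, and the phosphatidylserine and lipoprotein receptors Stab1 and Scarb1. Every probe whose transcript accession belonged to one of these 8 genes was taken, which gave 11 of the 41174 probes on the array and 8 of the 16535 genes that could be named. Msr1 had 3 probes, Stab1 had 2 and the other genes had 1 each.

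FDCPmix is a mouse multipotent blood progenitor line that renews itself in IL-3 and can differentiate along the erythroid and neutrophil lineages, so all groups share the background of 1 cell line. Cells kept in self-renewal conditions received lentivirus that carried an empty vector (EV), an shRNA against Gata2 (Gata2 KD) or an shRNA against Pu.1, the product of Spi1 (Pu.1 KD). Viable GFP+ cells were sorted 5 days later, and 150 ng of total RNA per sample was hybridised in a single colour to 9 arrays, 3 per group. How many shRNA sequences were used per target is not stated in the labels. The samples of each group were transduced in triplicate, but no source used here says that these were separate experiments, so that p-values measure the spread between these samples only.

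Scavenger receptors bind a wide range of altered self and microbial ligands and deliver them to the endocytic pathway. Efferocytosis, the uptake of apoptotic cells, depends on the display of phosphatidylserine on the dying cell, which is recognised directly by receptors such as Stab1 or through the bridging proteins Gas6 and Pros1 by the TAM kinases Tyro3, Axl and Mertk. These receptors are best known from tissue macrophages, and PU.1 is the ETS factor on which the macrophage lineage depends, while GATA2 maintains progenitors and mast cells.

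A level here is the log2 intensity of a probe after the 75th percentile of its array was subtracted, so that 0 is that percentile and each unit is a doubling. Spots well above background made up 80.4% to 89.6% of each array. EV replicate 3 stood apart, with a mean correlation of 0.9597 with the other arrays where no other array was below 0.9712, and results that rest on it are given with and without it. The 3 slides held 1 array of each group, and the first principal component, 36.7% of the variance, lay mainly between slides (77.64%), so that differences within slides are also given. The targeted genes followed the labels: Gata2 fell by 1.63 in Gata2 KD (adjusted p = 0.00398, limma) and Spi1 fell by 1.74 in Pu.1 KD (adjusted p = 0.0018, limma), while Spi1 rose by 1.37 in Gata2 KD (adjusted p = 0.00129, limma). All 7 progenitor markers examined, Kit, Cd34, Myb, Gata2, Meis1, Flt3 and Cd27, were well above background on every array.

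Stretches upstream of the 3 receptors that passed the test in any comparison with EV are shown because the factors that were knocked down bind DNA, PU.1 at ETS motifs such as GGAAGTG and GATA2 at GATA motifs such as AGATAAG. They are the 250 bases before the RefSeq start site on the strand of the gene, in build GRCm38.p6, with a match to GGAAGTG on either strand in capitals: Mrc1 at chr2:14229164-14229413 on the plus strand, Stab1 at chr14:31168642-31168891 on the minus strand and Axl at chr7:25788734-25788983 on the minus strand.
Mrc1: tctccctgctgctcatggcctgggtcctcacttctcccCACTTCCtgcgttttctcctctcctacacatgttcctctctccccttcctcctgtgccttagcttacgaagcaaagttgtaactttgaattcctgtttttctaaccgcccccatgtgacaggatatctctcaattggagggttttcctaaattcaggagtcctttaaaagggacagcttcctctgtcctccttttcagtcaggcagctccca
Stab1: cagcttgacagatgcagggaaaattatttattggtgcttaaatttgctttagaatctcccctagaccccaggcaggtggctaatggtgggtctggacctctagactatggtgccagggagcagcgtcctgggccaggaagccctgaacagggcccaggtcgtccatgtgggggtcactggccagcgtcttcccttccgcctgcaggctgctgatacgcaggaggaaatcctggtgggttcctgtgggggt
Axl: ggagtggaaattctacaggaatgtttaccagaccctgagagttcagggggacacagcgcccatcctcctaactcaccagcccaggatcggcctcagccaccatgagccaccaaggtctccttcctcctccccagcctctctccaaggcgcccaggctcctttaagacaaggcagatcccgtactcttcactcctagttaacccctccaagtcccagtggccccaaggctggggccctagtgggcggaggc
Both motifs were searched on both strands of the 300-base windows, 250 bases before to 50 bases after the start, that were at hand for 6 of the 8 receptors, Msr1 and Scarb1 being the other ones. GGAAGTG lay in 1 of the 6, in that of Mrc1 on the opposite strand, between 212 and 206 bases before the start, where it reads CACTTCC in the printed strand. AGATAAG lay in none of them. Of all 32851 windows of this length, 11% held GGAAGTG and 3.04% held AGATAAG, and the match is a description of the sequence only.

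Not all receptors gave a signal well above background in the control cells. In EV, Mrc1 and probe 3 of Msr1 were at background on all 3 arrays, that is, not well above it, and Cd163 and Mertk were well above it on EV replicate 3 alone. Msr1 by its other probes, Marco, Axl, Stab1 and Scarb1 were well above background on all 3 EV arrays, and on the remaining 6 arrays as well. That flag alone does not show expression. On all 3 EV arrays it was also passed by 6 of 7 lymphoid markers, among them Cd3e with a mean level of 0.14. Probes that exceeded background clearly on 3 or more of the 9 arrays entered the test, which kept 10 of the 11 probes and 7 of the 8 receptors and left out Cd163.

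**Figure D1:**
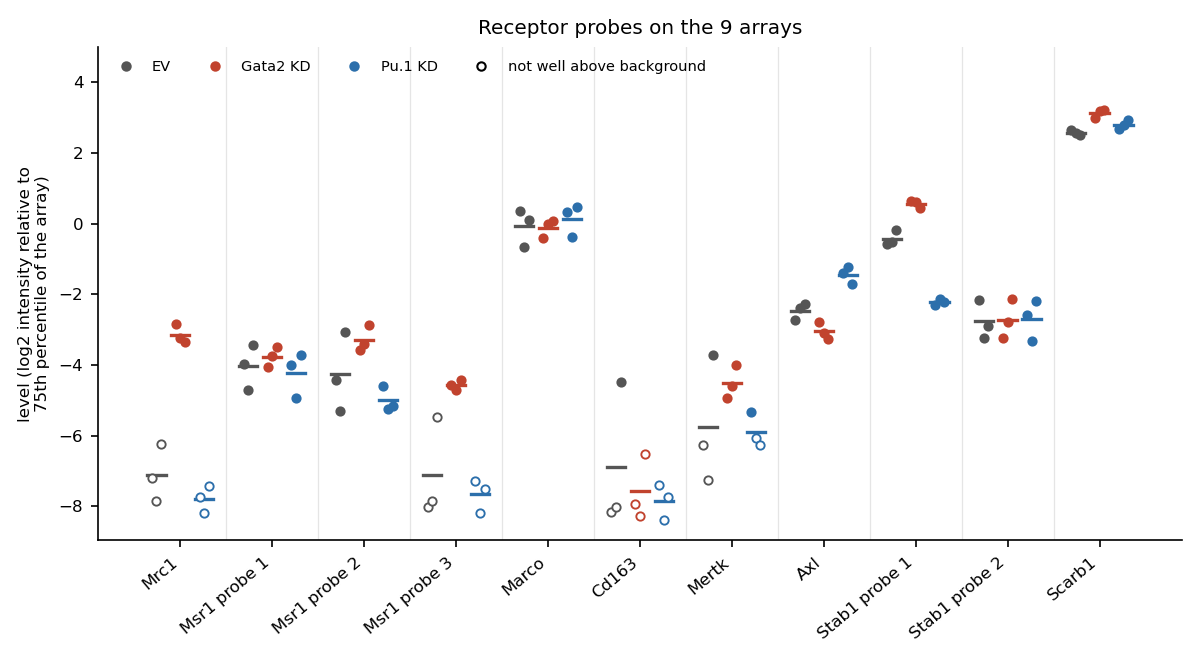
Level of each receptor probe (log2 intensity minus that of the array's 75th percentile) on the 9 arrays, with EV in grey, Gata2 KD in red and Pu.1 KD in blue; horizontal bars are group means and open circles are spots not well above background. Mrc1 and probe 3 of Msr1 are filled only in Gata2 KD, the 3 groups of Stab1 probe 1 are separate, and Axl is highest in Pu.1 KD.

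In Gata2 KD, 2 of the 7 tested receptors rose against EV, Mrc1 and Stab1, and none fell, beside 5.17% of all 36585 tested probes called in either direction (2.83% higher, 2.33% lower). In Pu.1 KD, Axl rose and Stab1 fell, beside 2.63% of all tested probes (1.23% higher, 1.4% lower). Between the knockdowns, Mrc1 and Stab1 were higher and Axl lower in Gata2 KD, with 9.61% of all tested probes called (4.68% higher, 4.94% lower). A call is a limma adjusted p under 0.05 after Benjamini-Hochberg adjustment over all tested probes, with each gene counted by its brightest tested probe. The median change of the 7 receptors was 0.56 in Gata2 KD, where it was -0.11 for all tested probes, and -0.13 in Pu.1 KD, where it was -0.04. The comparisons with EV share the EV arrays. Mrc1 and probe 3 of Msr1 passed the filter through the Gata2 KD arrays alone and therefore had to be higher there. Both limits make these counts and medians descriptions, and the p-values of these probes in Gata2 KD, against EV or Pu.1 KD, are descriptions too.

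Mrc1, the mannose receptor CD206, which takes up mannosylated glycoproteins, had the largest change of the 7 tested receptors in Gata2 KD. Its level was -7.20, -7.85 and -6.25 in EV replicates 1 to 3, -2.84, -3.25 and -3.35 in Gata2 KD and -7.75, -8.20 and -7.43 in Pu.1 KD. All 3 Gata2 KD arrays were above every EV and Pu.1 KD array, and only they were well above background. Mrc1 entered the test through these arrays alone, so its p-values in Gata2 KD are descriptions. Mrc1 rose by 3.95 on the log2 scale in Gata2 KD against EV (SE 0.39, limma adjusted p = 0.000612). Because EV was at background, this corresponds to at least 6.76-fold in the levels used here, or 2.76 on the log2 scale. The bound sets the Gata2 KD mean against the lowest level well above background on each EV array, or the probe's own level where higher. Without EV replicate 3, its change was 4.38 (limma adjusted p = 0.000232), or at least 9.05-fold. The difference was between 3.0 and 5.01 within the 3 slides. With normexp background correction the change was 0.93 and in the deposited log2 values 1.42. Both were still called but lie under the bound, so the size of the change depends on how background was handled. Lower bounds on folds, here and for other probes, therefore hold only for levels as defined here. Pu.1 KD and EV were both at background, so no fold is given for that comparison, and against Pu.1 KD the Gata2 KD level was at least 8.69-fold higher (limma adjusted p = 0.000142).

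Msr1 encodes scavenger receptor A, which binds modified low density lipoproteins and polyanionic ligands, and its 3 probes gave different pictures. Probe 1 (A_52_P127130), the brightest on average, read -3.97, -4.72 and -3.42 in EV, -4.07, -3.76 and -3.48 in Gata2 KD and -4.01, -4.94 and -3.71 in Pu.1 KD. These ranges overlapped, with a change of 0.27 in Gata2 KD (95% interval -0.65 to 1.19) and -0.18 in Pu.1 KD (-1.10 to 0.74). Probe 2 (A_51_P404846) read -4.43, -5.29 and -3.07 in EV, -3.57, -3.41 and -2.87 in Gata2 KD and -4.60, -5.24 and -5.17 in Pu.1 KD. On this probe every Gata2 KD array lay above every Pu.1 KD array, whereas EV spanned both, with replicate 3 the highest and replicate 2 the lowest. Its change in Gata2 KD was 0.98 (SE 0.51, limma adjusted p = 0.451), and without EV replicate 3 it was 1.58 (limma adjusted p = 0.0445).

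Probe 3 of Msr1 (A_52_P607128) was well above background on the 3 Gata2 KD arrays alone, at -4.58, -4.71 and -4.43. It read -8.02, -7.86 and -5.49 in EV and -7.28, -8.19 and -7.51 in Pu.1 KD, so that Gata2 KD lay above both other groups, which overlapped each other. This probe entered the test through the Gata2 KD arrays alone, so its p-values there are descriptions. Against EV the change was 2.55 (SE 0.61), at least 2.51-fold in the levels used here, and it was not called (limma adjusted p = 0.0546). It passed in 5 of 19 alternatives. Among them were the fit without EV replicate 3, at 3.37 and at least 3.37-fold (limma adjusted p = 0.000456), and the slide as a block (limma adjusted p = 0.0405). With normexp background correction the change was 0.42 (limma adjusted p = 0.204), and in the deposited log2 values 0.63 (limma adjusted p = 0.00362), both under the bound. Its within-slide differences ran from 0.77 to 3.59, the smallest on the slide of EV replicate 3. Against Pu.1 KD this probe was higher in Gata2 KD by 3.09, at least 3.23-fold (limma adjusted p = 0.0145), a call lost with normexp background correction, where the difference was 0.44, and without Gata2 KD replicate 2 or 3 or Pu.1 KD replicate 2. Which transcripts each probe reads is not given in the files, and levels of different probes were not compared.

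Marco, a class A scavenger receptor with a collagen-like domain that binds bacteria and particles, was well above background on every array and close to the 75th percentile. Its levels were 0.37, -0.66 and 0.10 in EV, -0.40, -0.0020 and 0.07 in Gata2 KD and 0.32, -0.38 and 0.48 in Pu.1 KD. The 3 groups overlapped throughout. The change was -0.05 in Gata2 KD (95% interval -0.78 to 0.68) and 0.21 in Pu.1 KD (-0.52 to 0.94), and these intervals bound what 3 arrays a group could show. Whether the signal of this probe reflects Marco expression in these cells was not tested.

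Cd163, which clears complexes of haemoglobin and haptoglobin, was at background almost everywhere. Its level was -8.15, -8.02 and -4.47 in EV, -7.93, -8.28 and -6.52 in Gata2 KD and -7.40, -8.38 and -7.73 in Pu.1 KD. Only EV replicate 3 was well above background, so Cd163 was not tested and no fold is given.

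Mertk is the TAM kinase most used by macrophages to engulf apoptotic cells. Its level was -6.28, -7.26 and -3.72 in EV, -4.93, -4.59 and -4.01 in Gata2 KD and -5.34, -6.06 and -6.26 in Pu.1 KD. It was well above background on the 3 Gata2 KD arrays, on EV replicate 3 and on Pu.1 KD replicate 1. The Gata2 KD arrays lay above all Pu.1 KD arrays and above EV replicates 1 and 2, but below EV replicate 3. The change in Gata2 KD was 1.24 (SE 0.79, limma adjusted p = 0.597), and without EV replicate 3, where both remaining EV arrays were at background, it was 2.26 or at least 3.32-fold (limma adjusted p = 0.0232). Within slides the differences were 2.27, -0.87 and 2.33, the negative one on the slide of EV replicate 3 and the others against EV arrays at background. In Pu.1 KD the change of Mertk was -0.13 (SE 0.79) and was not called, with or without EV replicate 3, and against Pu.1 KD the Gata2 KD level differed by 1.37 (limma adjusted p = 0.47).

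Axl, the TAM kinase that binds Gas6 and is induced in inflammation, was well above background on every array. Its level was -2.73, -2.39 and -2.26 in EV, -2.79, -3.09 and -3.27 in Gata2 KD and -1.40, -1.24 and -1.72 in Pu.1 KD. The 3 Pu.1 KD arrays were above all others, and the 3 Gata2 KD arrays were below all others. Axl rose by 1.01 in Pu.1 KD, or 2.01-fold (SE 0.20, limma adjusted p = 0.0407), and by 0.86 to 1.15 within slides. This call is near the threshold and was lost in 13 of 20 alternatives, among them the fits without any 1 of the EV or Pu.1 KD arrays (without EV replicate 3, 1.11 with limma adjusted p = 0.0576), although the change stayed between 0.72 and 1.14 throughout. In Gata2 KD the change was -0.59 (SE 0.20, limma adjusted p = 0.186), which passed only with the slide as a block (limma adjusted p = 0.0281). Between the knockdowns Axl was lower in Gata2 KD, with a difference of -1.60 (SE 0.20, limma adjusted p = 0.00134) that ran from -1.69 to -1.55 within slides, and this call held in all 20 alternatives.

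**Figure D2:**
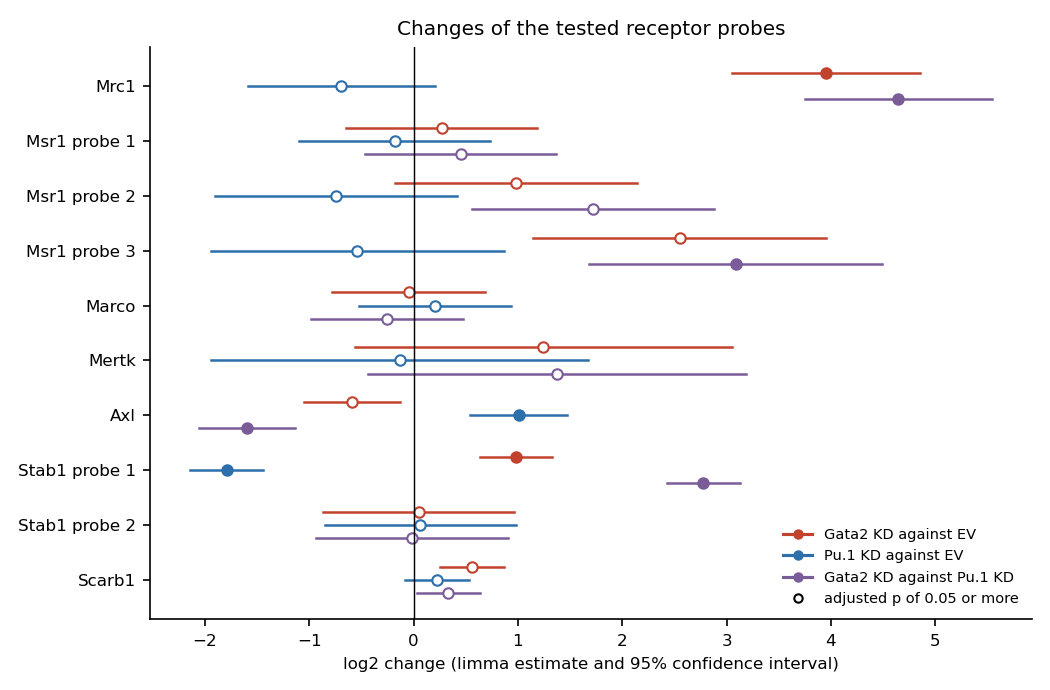
Log2 change of each tested receptor probe with its 95% confidence interval from limma, for Gata2 KD against EV (red), Pu.1 KD against EV (blue) and Gata2 KD against Pu.1 KD (purple); filled circles have an adjusted p under 0.05. Mrc1 and Stab1 probe 1 are filled to the right in red, Stab1 probe 1 is filled to the left in blue at -1.79, and Axl is filled to the right in blue at 1.01.

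Stab1, stabilin-1, which binds phosphatidylserine and acetylated lipoproteins and carries SPARC to lysosomes, was the only 1 of the 8 receptors called in all 3 comparisons. Its brighter probe 1 (A_51_P232371) read -0.57, -0.53 and -0.18 in EV, 0.63, 0.61 and 0.44 in Gata2 KD and -2.30, -2.12 and -2.23 in Pu.1 KD. The 3 groups were fully separate, with Gata2 KD highest and Pu.1 KD lowest. Stab1 rose by 0.99 in Gata2 KD, or 1.98-fold (SE 0.15, limma adjusted p = 0.00662), and by 0.79 to 1.16 within slides. It fell by 1.79 in Pu.1 KD, or 3.46-fold (SE 0.15, limma adjusted p = 0.00145), with within-slide differences from -2.13 to -1.60. Without EV replicate 3 the changes were 1.11 and -1.67, and both calls held in all 20 alternatives. The difference between the knockdowns was 2.78 (limma adjusted p = 1.15e-05).

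Stab1 probe 2 (A_52_P380399) showed none of this. It read -2.16, -3.23 and -2.90 in EV, -3.23, -2.78 and -2.13 in Gata2 KD and -2.59, -3.31 and -2.20 in Pu.1 KD, all well above background. The groups overlapped completely, with a change of 0.05 in Gata2 KD (95% interval -0.87 to 0.97) and 0.07 in Pu.1 KD (-0.85 to 0.99). The Stab1 result therefore rests on 1 of its 2 probes. In Gata2 KD the interval of probe 1, 0.64 to 1.33, overlapped that of probe 2, so the probes were not shown to differ there. In Pu.1 KD the interval of probe 1, -2.14 to -1.45, lay below that of probe 2.

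Scarb1, the high density lipoprotein receptor that also binds apoptotic cells, was the brightest probe of the set, at 2.65, 2.57 and 2.51 in EV, 3.0, 3.18 and 3.23 in Gata2 KD and 2.69, 2.78 and 2.94 in Pu.1 KD. All Gata2 KD arrays exceeded all Pu.1 KD arrays, which in turn exceeded all EV arrays. The change in Gata2 KD was 0.56, or 1.47-fold (SE 0.13, 95% interval 0.25 to 0.87), just short of the threshold (limma adjusted p = 0.0522), and 0.43 to 0.67 within slides. It passed in 5 of 20 alternatives, among them the slide as a block (limma adjusted p = 0.0214), and without EV replicate 3 it was 0.53 (limma adjusted p = 0.129). In Pu.1 KD the change was 0.23 (limma adjusted p = 0.639), and between the knockdowns it was 0.33 (limma adjusted p = 0.211).

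**Figure D3:**
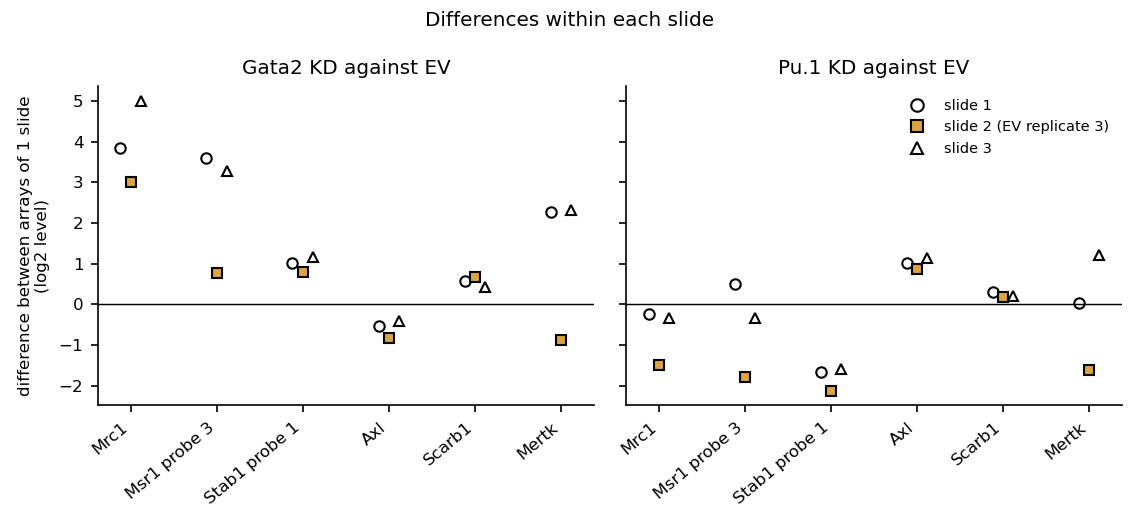
Differences in log2 level between arrays on the same slide for 6 receptor probes, Gata2 KD against EV on the left and Pu.1 KD against EV on the right; symbols are slides, and the filled squares are the slide with EV replicate 3. Mrc1 lies between 3.0 and 5.01 and Stab1 between 0.79 and 1.16 in Gata2 KD, while Mertk is at -0.87 on the slide with EV replicate 3 and above 2 on the other slides.

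Across the 3 groups, Mrc1 was detected only in Gata2 KD, Stab1 probe 1 was highest in Gata2 KD and lowest in Pu.1 KD, Axl was lowest in Gata2 KD and highest in Pu.1 KD, and the groups of Marco overlapped. Some markers of myeloid cell types moved with the groups. Of 10 macrophage markers with a named probe, Csf1r, Adgre1, Cd14, Fcgr1 and C1qc rose in Gata2 KD and Adgre1 and Fcgr1 fell in Pu.1 KD, and their summed linear level, with the 75th percentile of the array as the unit, was 5.11 to 5.99 in EV, 28.2 to 30.0 in Gata2 KD and 3.28 to 4.07 in Pu.1 KD. Of 14 neutrophil markers, 12 rose in Gata2 KD and 9 fell in Pu.1 KD, with a summed level of 237 to 267 in EV, 1097 to 1315 in Gata2 KD and 104 to 122 in Pu.1 KD. For the 4 monocyte markers the ranges were 5.61 to 7.69, 14.3 to 21.1 and 3.81 to 4.89. For the 9 dendritic cell markers they were 3.94 to 4.51, 44.8 to 51.6 and 2.94 to 3.40. Of these 9, only H2-Ab1 and Cd74 rose in Gata2 KD and fell in Pu.1 KD, and the other 7 were called in neither comparison. The median change over the 9 was 0.06 in Gata2 KD. There only H2-Ab1 and Cd74 had a mean above the 75th percentile, at 4.05 and 4.85, so the summed level mainly reads these genes. Of 9 mast cell and basophil markers, 6 fell in Gata2 KD, and 3 fell and 1, Cma1, rose in Pu.1 KD, with a summed level of 110 to 127 in EV, 22.6 to 24.3 in Gata2 KD and 71.3 to 78.9 in Pu.1 KD. The part of these cell types in the receptor results was not tested, and in bulk RNA more cells of a type cannot be told apart from more RNA per cell.

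Further genes of the same pathways were read from 4 lists. Among 15 tested scavenger receptors outside the set, Lrp1, an endocytic receptor that also takes part in efferocytosis, rose by 1.24 (SE 0.25, limma adjusted p = 0.0262) and Scarb2, the lysosomal receptor for glucocerebrosidase, by 0.99 (SE 0.22, limma adjusted p = 0.0391) in Gata2 KD. The remaining 13 did not pass, and the median change was -0.07. In Pu.1 KD, 1 of 15 passed, Scarf1, an endothelial scavenger receptor, with a rise of 0.62 (SE 0.12, limma adjusted p = 0.0384).

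Among 30 tested efferocytosis genes, 7 rose and 2 fell in Gata2 KD. Trem2, a lipid-sensing receptor of macrophages, rose by 6.10 (SE 0.24) from a level of -3.04 in EV to 3.07 in Gata2 KD. Sirpa, the receptor for the don't-eat-me signal Cd47, rose by 4.82 (SE 0.15), Itgb5, the integrin chain that binds apoptotic cells through Mfge8, by 3.92 (SE 0.26), and P2ry6, a nucleotide receptor linked to phagocytosis, by 3.81 (SE 0.24). All 4 were well above background on every array, with limma adjusted p of 7e-05 or less. C1qc (2.20), Thbs1 (3.06) and P2ry2 (2.20) also rose, and the bridging protein Mfge8 (-0.66) and the cholesterol exporter Abcg1 (-2.30) fell, while the median over the 30 was 0.07. C1qa (0.27) and C1qb (0.60), which encode the other chains of C1q, were not called in Gata2 KD. In Pu.1 KD, 1 of 30 rose, Tgm2, a transglutaminase that assists engulfment, by 1.45 (SE 0.23, limma adjusted p = 0.017), and 1 fell, the ATP receptor P2ry2, by 1.19 (SE 0.16, limma adjusted p = 0.00906). The third TAM kinase Tyro3 and the TAM ligands Gas6 and Pros1 were called in no comparison, with changes of -0.43, -0.10 and -0.19 in Gata2 KD and -0.20, 0.15 and 0.08 in Pu.1 KD.

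Of the 11 ligands and partners of the receptors, Hp, haptoglobin, the carrier that delivers haemoglobin to Cd163, rose by 5.09 in Gata2 KD (SE 0.16, limma adjusted p = 3.67e-06), with Cd163 itself at background. Sparc, the matrix protein cleared by Stab1, fell by 1.92 in Gata2 KD (SE 0.19, limma adjusted p = 0.000661) and rose by 1.55 in Pu.1 KD (SE 0.19, limma adjusted p = 0.00649), the reverse of Stab1 probe 1 in both. Of 12 tested macrophage transcription factors, 5 rose in Gata2 KD and none fell, with a median of 0.82. Irf8 rose by 4.36 (SE 0.13), Maf by 4.05 (SE 0.28), Tfec by 2.88 (SE 0.16) and Spi1 by 1.37, all regulators of monocyte and macrophage genes, and Cebpb also rose, by 1.09. In Pu.1 KD, 3 of the 12 fell, with a median of -0.40, namely Spi1, the target itself, Klf4, a monocyte factor, with a change of -1.32 (SE 0.27, limma adjusted p = 0.0463), and Cebpa, a factor of granulocyte and monocyte progenitors, with a change of -0.81.

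**Figure D4:**
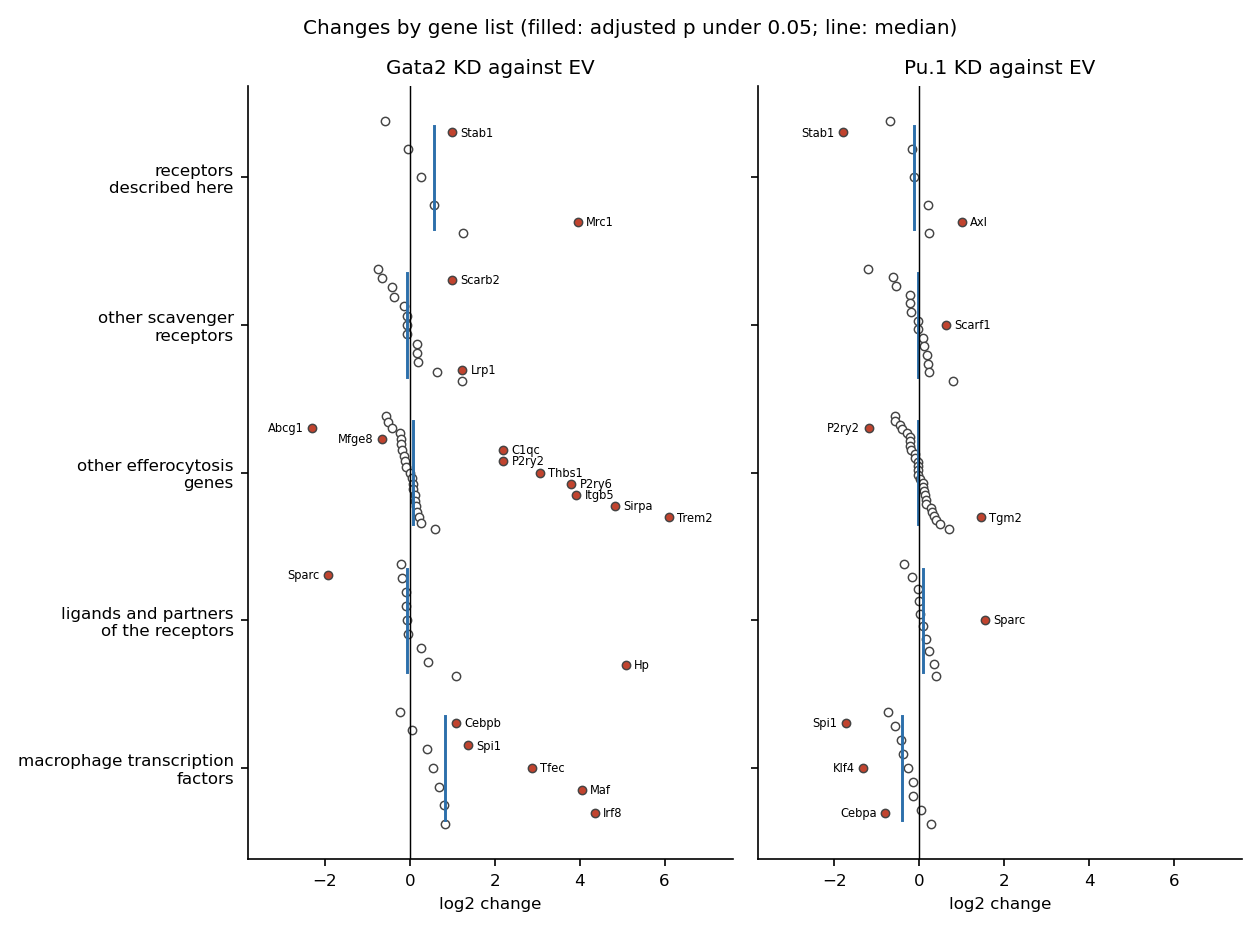
Log2 change of the 7 tested receptors and of 4 further gene lists in Gata2 KD against EV (left) and Pu.1 KD against EV (right); each circle is a gene, filled and named where the limma adjusted p is under 0.05, and vertical bars are list medians. In Gata2 KD, Stab1 at 0.99 is level with Scarb2, and the position of Mrc1 at 3.95 rests on an EV group at background, with a lower bound of 6.76-fold.

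The genes whose profile over the 9 arrays was closest to that of each receptor were found by the root mean square difference of log2 levels, after the mean of each probe was taken off, among 15498 genes. Nearest to Mrc1 were Itgb5 (0.289), Oas2, an interferon-induced enzyme (0.301), and Clec4a2, a myeloid C-type lectin (0.305), where the own spread of Mrc1 was 2.09. Nearest to Stab1 were Cotl1, an actin-binding protein (0.153), Evi2a (0.161) and Fcgr2b, the inhibitory Fc receptor (0.175), and nearest to Axl were Pttg1ip (0.126), Mylpf (0.136) and Nrgn (0.148). For Scarb1 they were Abtb1 (0.075), Tepsin (0.083) and Gga1 (0.085). The receptors with overlapping groups, Msr1 (Trim6, Tpbpa and Myoz1), Marco (Muc5b, Anxa8 and Olfr1344) and Mertk (Apof, Ucp3 and Shcbp1l), are listed with their nearest genes for completeness, and likeness carries no test.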

How the data were processed

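Total RNA of 9 samples of sorted FDCPmix cells was labelled with Cy3 and hybridised to Agilent whole mouse genome arrays, a design that uses build mm8. The authors deposited the intensity of every spot from Agilent Feature Extraction 10.1.1.1, background-subtracted and detrended within the array but not scaled between arrays. They also deposited a table of log2 values for the 9 arrays, whose correlation per array was at least 0.997 with the log2 median signal and at most 0.980 with the processed signal. Its column medians were 7.002 to 7.048, its exact scaling is not given in the sources used here, and it served as an alternative only.

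Levels were the log2 processed signal minus the array's 75th percentile. Control and outlier spots were left out, and replicate spots were averaged. Probes well above background on at least 3 of 9 arrays, with 2 values in each group, were tested (36585). Groups came from sample titles, and 1 fit over the 3 groups was made with limma 3.58.1 in R 4.3.3, two-sided, with Benjamini-Hochberg adjustment. The number of arrays limits the precision. The procedure was tested on simulated data. Fits on fewer arrays kept the same probes. Genes were named from unversioned accessions through the RefSeq table of GRCm38.p6 (23374 of 41174 probes), and promoter stretches came from RefSeq. A gene was counted by its brightest tested probe. Named were the 8 receptors, the targeted genes, from each of 4 further lists the 4 called genes with the largest change in Gata2 KD and the 2 in Pu.1 KD, and 3 genes closest to each receptor, and further genes of the lists were named after their values were seen. The receptors and lists were chosen with earlier results of these data known.

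Alternatives were a replicate or slide block, normexp with an offset of 50 (on the median spot signal, as the mean was not at hand), quantile or median scaling, other filters, eBayes with a trend and robust fitting, the authors' log2 table, a fit of the compared groups alone, each array left out and any probe of a gene. Markers of erythroid, megakaryocyte, lymphoid and endothelial or stromal cells were also summed, and gave 9.35 to 10.2, 61.7 to 79.2, 2.84 to 3.88 and 2.45 to 3.70 in EV, 7.09 to 11.0, 63.1 to 93.5, 2.68 to 3.55 and 2.22 to 3.44 in Gata2 KD and 15.3 to 17.6, 148 to 171, 3.33 to 4.03 and 2.43 to 3.16 in Pu.1 KD.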

Additional observations from a re-analysis of the deposited data

How the results depend on the processing

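The number of receptors called in Gata2 KD against EV was 2, and it was 4 with the slide as a block, where Scarb1 and Axl were added. It was 3, with Scarb1 added, with normexp background correction, with trend and robust settings and in the deposited log2 values. When only probes well above background on all 9 arrays were tested, Mrc1 was left out and the 2 called were Stab1 and Scarb1. The number was 2 or 3 over the fits without 1 array, with Mertk added without EV replicate 3. In Pu.1 KD against EV the number was 2, and it fell to 1, with Axl lost and Stab1 kept, with a replicate block, without the filter on dim probes, with scaling to the median or quantile normalization, and with the groups compared alone, and it was 1 or 2 over the fits without 1 array. Between the knockdowns it was 3, and 2 to 4 over all alternatives. Same-numbered samples did not pair, with correlations of their deviations from -0.5518 to 0.6524 and of at most 0.3514 for those on different slides, against -0.04079 to 0.7185 for all pairs on the same slide, which include 2 same-numbered pairs. The replicate block changed no member's call apart from Axl in Pu.1 KD (limma adjusted p = 0.135).

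The replicate block left 1167 probes of all genes called in Gata2 KD against EV and 227 in Pu.1 KD, where there were 1890 and 962 without it, and 2350 of 3517 between the knockdowns. With the slide as a block these numbers were 2924, 1830 and 5170, and with scaling to the median 1191, 368 and 2266. The share of higher calls in Gata2 KD was 54.8%, and 69.4% with scaling to the median. In Pu.1 KD 1565 probes were called with trend and robust settings, 1785 in the deposited log2 values and 219 with the groups compared alone, and in Gata2 KD 1106 with the groups compared alone. Over the fits without 1 array the numbers were 1047 to 1697, 277 to 822 and 2211 to 3942.

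Changes that turned sign were all uncalled. In Gata2 KD they were Marco (0.011 with scaling to the median, -0.34 to 0.17 without 1 array), Stab1 probe 2 (-0.011 in the deposited log2 values, -0.24 to 0.35 without 1 array) and Msr1 probe 1 (-0.069 to 0.58 without 1 array). In Pu.1 KD they were Mrc1 (0.00033 in the deposited log2 values), Msr1 probe 1 (0.014 with quantile normalization, -0.52 to 0.18 without 1 array), Msr1 probe 3 (0.027 with quantile normalization, -0.99 to 0.28 without 1 array), Mertk (0.043 with quantile normalization, -0.89 to 0.88 without 1 array), Stab1 probe 2 (-0.012 with normexp, -0.016 in the deposited log2 values, -0.19 to 0.37 without 1 array) and Marco (-0.088 to 0.47 without 1 array). Between the knockdowns it was Stab1 probe 2 (0.021 with normexp, 0.0080 with quantile normalization, 0.0053 in the deposited log2 values, -0.32 to 0.24 without 1 array). The cause of these shifts was not tested. Among the recomputed changes of single probes, 520 kept their direction and side of the threshold, 23 gained and 17 lost the call, and 31 turned sign. Dim probes limit what the arrays resolve: Mrc1 and Msr1 probe 3 lie at background on all EV arrays, and Mertk on 2 of 3.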
